A study of Mus musculus with 16 samples.

Results

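The transcripts described here are the Gm37xxx rows of the count table, those with the provisional mouse symbols Gm37000 to Gm37999. A row was a member when 5 or more counts fell on it in 8 or more of the 16 libraries. Of 943 rows with such a symbol, 226 were members, 388 had counts but failed that filter, and 329 had no count in any library. The members were 226 of the 18227 features tested in the series.

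RNA was taken from microglia of the olfactory bulb, isolated with magnetic beads against CD11b, a surface integrin of microglia and other myeloid cells. All mice were 2 months old, and the 4 groups of 4 libraries were female (f) and male (m) WT mice and female and male App NL-G-F mice. App NL-G-F is a knock-in in which the mouse App gene itself carries humanised amyloid-β sequence with the Swedish, Arctic and Iberian changes, so that no transgene promoter drives it. The comparison asks which transcripts differ in the microglial fraction at the age when noradrenergic axons begin to be lost from the bulb of the knock-in.

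Most members belong to TEC, the GENCODE class for models that still await an experiment, which holds regions with signs of a polyadenylated RNA but no proof of an independent gene. Such models are usually unspliced, and many lie in an intron of a longer gene, the host, on the strand from which the host is transcribed. Short reads from an intronic model and from the unspliced precursor of its host have the same sequence, so the 2 sources cannot be told apart in these counts.

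An entry in GENCODE M39 was found for 220 of the 226 members, of which 200 were TEC, 15 lncRNA and 5 processed pseudogenes. No entry was found for Gm37168, Gm37170, Gm37298, Gm37472, Gm37694 and Gm37928, which are described without a position. The models were short and mostly unspliced: 208 had 1 exon block, and the exonic length had a median of 2501 bases (range 275 to 8717). Chromosome 1 held 116 of them, or 52.7%, against 8.43% of the other 949 tested TEC features. Wholly inside an intron of a gene on the same strand lay 183 members (83.2%), against 76.7% of the other TEC features. A further 12 lay inside a gene but touched one of its exons, 7 overlapped a gene in part, 10 were antisense to a gene and 8 lay outside genes.

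The ends of the models are shown first, because the bases around them are compared with those of other TEC features and lncRNA genes further on. Each line gives 60 bases of GRCm39 on the strand of the member, with 30 bases before and 30 after the annotated 3′ end. Capitals mark runs of at least 6 A and the polyadenylation hexamers AATAAA and ATTAAA. The first 4 were among the called members with the smallest p that have a position, and the last 3 had the highest level per exonic kilobase.
Gm37820, chr14:61923076-61923135, plus strand: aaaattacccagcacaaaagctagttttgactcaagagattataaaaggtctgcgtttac
Gm37305, chr3:65869428-65869487, plus strand: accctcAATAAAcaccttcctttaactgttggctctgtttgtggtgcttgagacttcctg
Gm37138, chr1:15628532-15628591, plus strand: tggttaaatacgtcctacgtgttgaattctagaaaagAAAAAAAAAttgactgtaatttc
Gm37674, chr1:194353785-194353844, plus strand: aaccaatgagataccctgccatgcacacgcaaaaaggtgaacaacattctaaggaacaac
Gm37352, chr8:84929649-84929708, plus strand: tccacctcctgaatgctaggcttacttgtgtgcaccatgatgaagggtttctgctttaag
Gm37689, chr4:6378263-6378322, plus strand: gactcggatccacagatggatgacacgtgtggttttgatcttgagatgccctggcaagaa
Gm37524, chr1:168163519-168163578, minus strand: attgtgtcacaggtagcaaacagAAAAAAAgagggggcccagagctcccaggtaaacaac

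In Gm37138 the marked A run lay beyond the annotated end, and 15 of the 20 bases beyond the end were A. Gm37305 ended after a hexamer, with 0 A among the next 20 bases. Over the 220 members with a position, 127 (57.7%) had at least 12 A in those 20 bases, which was also the case for 55.2% of other TEC features and for 6.93% of other tested lncRNA genes. The share was 65.6% among the 183 members in an intron and 18.9% among the 37 placed otherwise. A hexamer occurred within the last 50 bases of 52 members (23.6%), of 26.8% of other TEC features and of 55.6% of other lncRNA genes. Both features were read on the strand of the transcript only, and an A-rich window and a hexamer may occur in the same model. A match describes these letters and is not a mapped cleavage site.

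The starts are shown for 3 members that were lower in knock-in libraries and 1 that was higher, chosen after their values were seen. Each line gives 150 bases before and 50 bases from the annotated start, with CG dinucleotides in capitals.
Gm37305, chr3:65865029-65865228, plus strand: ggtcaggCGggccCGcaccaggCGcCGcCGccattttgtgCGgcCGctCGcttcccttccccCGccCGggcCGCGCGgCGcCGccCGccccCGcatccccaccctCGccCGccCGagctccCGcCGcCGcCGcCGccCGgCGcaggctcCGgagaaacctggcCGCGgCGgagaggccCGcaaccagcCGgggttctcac
Gm37352, chr8:84927348-84927547, plus strand: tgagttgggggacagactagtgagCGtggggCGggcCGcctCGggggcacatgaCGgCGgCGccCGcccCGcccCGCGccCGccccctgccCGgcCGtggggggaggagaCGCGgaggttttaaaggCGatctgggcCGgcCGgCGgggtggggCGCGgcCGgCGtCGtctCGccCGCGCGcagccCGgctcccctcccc
Gm37820, chr14:61920809-61921008, plus strand: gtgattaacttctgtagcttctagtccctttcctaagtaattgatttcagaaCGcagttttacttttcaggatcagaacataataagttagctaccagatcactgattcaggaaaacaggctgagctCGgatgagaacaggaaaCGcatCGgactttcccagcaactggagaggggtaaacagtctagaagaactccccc
Gm37138, chr1:15626323-15626522, plus strand: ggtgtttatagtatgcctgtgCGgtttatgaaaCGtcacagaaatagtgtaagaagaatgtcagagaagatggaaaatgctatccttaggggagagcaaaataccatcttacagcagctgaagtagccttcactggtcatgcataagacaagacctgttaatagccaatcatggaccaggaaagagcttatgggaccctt

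The window of Gm37305 held 33 CG and that of Gm37352 held 30, whereas those of Gm37820 and Gm37138 held 4 and 2. The median over the 220 members was 2 CG in 200 bases, over other lncRNA genes 6, and over the 14 members whose start lay within 1000 bases of the start of a gene on the other strand 5.5.

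Together the members took 0.0533% to 0.0796% of the counts of a library, 0.0688% ± 0.00784 in WT and 0.0633% ± 0.00672 in knock-in libraries (SD, n = 8 each). Levels are given as CPM, counts scaled to a common library total with TMM factors. A median member had a mean of 1.18 CPM, or 14.7 counts per library, and 146 of the 226 had fewer than 20 counts per library on average. At this depth the median standard error of a log2 fold change was 0.267 for members, against 0.123 over all tested features. In each library 3 counts, the limit that a count of 0 allows, corresponded to 0.166 to 0.331 CPM before scaling with TMM factors.

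The summed level was unevenly held, and its parts differed in direction. The 10 highest members summed to 265 to 430 CPM in WT and to 207 to 301 CPM in knock-in libraries, and the other 216 members to 278 to 415 and to 323 to 432 CPM. Both sums overlapped between the genotypes. Gm37472 was the highest member (mean 80.2 CPM), followed by Gm37352, Gm37305, Gm37084 and Gm37233. The next were Gm37420, in an intron of the microRNA host Dleu2, Gm37677, Gm37954 and Gm37613, in introns of Ppp1r12b, Srgap2 and Nav2, and Gm37524. Pairs with a tested host on the same strand were formed for TEC and lncRNA members only. They held 183 members, of which 6 touched an exon of the host, while 6 of the members in introns were in no pair. Per exonic kilobase these paired members had a median of 0.452 CPM and their hosts 3.94 CPM, with a median ratio of 0.138, and 14 of the 183 exceeded their host. On this per-length scale Gm37352 was highest at 22.9 CPM per kb, followed by Gm37689 and then Gm37524 (9.42). Gm37305 (8.76) was below these.

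Members differed between the genotypes more often upwards than downwards, and the largest in level went the other way. The test was edgeR's quasi-likelihood test with sex as a term, and a call needed an FDR (Benjamini-Hochberg, over all 18227 features) below 0.1 together with a log2 fold change beyond 0.5 either way. In knock-in libraries 50 members (22.1%) were called, where 8.64% of all tested features were. Of these, 37 were higher (16.4%; all features 4.33%) and 13 lower (5.75%; all features 4.3%). In bulk RNA a change in the number of cells and a change in RNA per cell cannot be told apart. The median log2 fold change was 0.31 over the 226 members, with 161 above 0, and -0.00144 over all tested features. The other 949 TEC features gave a like picture, with 280 called (29.5%), 207 higher and 73 lower, and a median of 0.33. Among the 1992 other lncRNA genes 120 were called higher and 438 lower. The 92 tested rows Gm38000 to Gm38999 had 20 higher and 5 lower, and the 29 rows Gm36000 to Gm36999 had 5 of each. By level, of the 10 highest, 4 were called lower and 1 higher, and of the other 216, 9 lower and 36 higher. By place, 28 of the 33 called members in introns were higher, whereas 5 of the 9 called members with a position that were not wholly inside a gene on its strand were lower. Of the 183 members in introns 18% were called, and of the 25 not wholly inside a gene on its strand 36%.

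Part of the upward count was fixed by the filter. There were 20 members that reached 5 counts in fewer than 4 WT libraries and so entered through the knock-in libraries; all 20 had a log2 fold change above 0 and 10 were called. Among the 206 others, 27 were called higher and 13 lower.

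Library names number the libraries, with 1 to 8 for replicates 1 and 2 and 9 to 16 for replicates 3 and 4 of every group. Within libraries 1 to 8, 74 members were called (56 higher and 18 lower; all features 13.7%), and within libraries 9 to 16, 2 were called, Gm37084 and Gm37125, both lower (all features 0.428%). In the latter 25 members had an unadjusted p below 0.05. The median log2 fold change over the members was 0.525 and 0.131, and 168 of the 226 members had the same sign in both. All 50 called members did. They were chosen by a fit over all 16 libraries, which favours equal signs, so this is no support. For 10 of the 50 the direction was set by the count filter. For example, Gm37305 was at -1.84 and -0.80, and Gm37138, one of these 10, at 2.43 and 1.35. The interaction of genotype with this split called 0 members and 0 features in edgeR, with 31 members at an unadjusted p below 0.05 and a smallest FDR of 0.537. It was not run in the other tools. With knock-in male replicate 3 left out of all 16 libraries, 76 members were called, 57 higher and 19 lower, and the features called rose likewise from 1574 to 2188.

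Markers of other cell types were read in the same libraries. All 12 microglial markers, among them Cx3cr1, P2ry12 and Tmem119, were tested, 0 were called and they summed to 21148 to 25175 CPM in every library. All 16 neuronal markers were detected as well. They summed to 902 to 1550 CPM in WT and to 1171 to 2277 CPM in knock-in libraries, 14 had a log2 fold change above 0, and Meis2, Meg3 and Snhg11 were called higher (median of the list 0.37). Snap25, Syt1, Gad1, Gad2, Map2, Syn1 and Celf4 were higher with an edgeR FDR below 0.1 but fell short of the fold threshold. The 8 oligodendrocyte markers had a median of 0.36 with 1 called higher, the 8 astrocyte markers -0.25, the 5 oligodendrocyte precursor markers 0.18, the 7 endothelial markers -0.17 and the 6 border macrophage markers 0.09, with 0 called in these 4. With the mean log2 CPM of the neuronal markers as a covariate, edgeR called 0 members and 61 of the 18227 features, where it called 1574 features without it. Of the members, 27 had an unadjusted p below 0.05, and 99 of the 226 were above 0, with a median of -0.06. Of the 24 named members that were called without the covariate, 0 were called with it, and Gm37677, Gm37211, Gm37666 and Gm37880 went from above to below 0. Gm37125 then stood at -1.36 (edgeR FDR 0.109), Gm37305 at -0.75 (FDR 0.129) and Gm37138 at 0.97 (FDR 0.409). Of 7 nuclear RNAs, Kcnq1ot1 and Miat were called higher (0.72 and 0.59) and Neat1 lower (-1.26). The part of other cells or of nuclear RNA in the differences of the members was not tested.

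**Figure D1:**
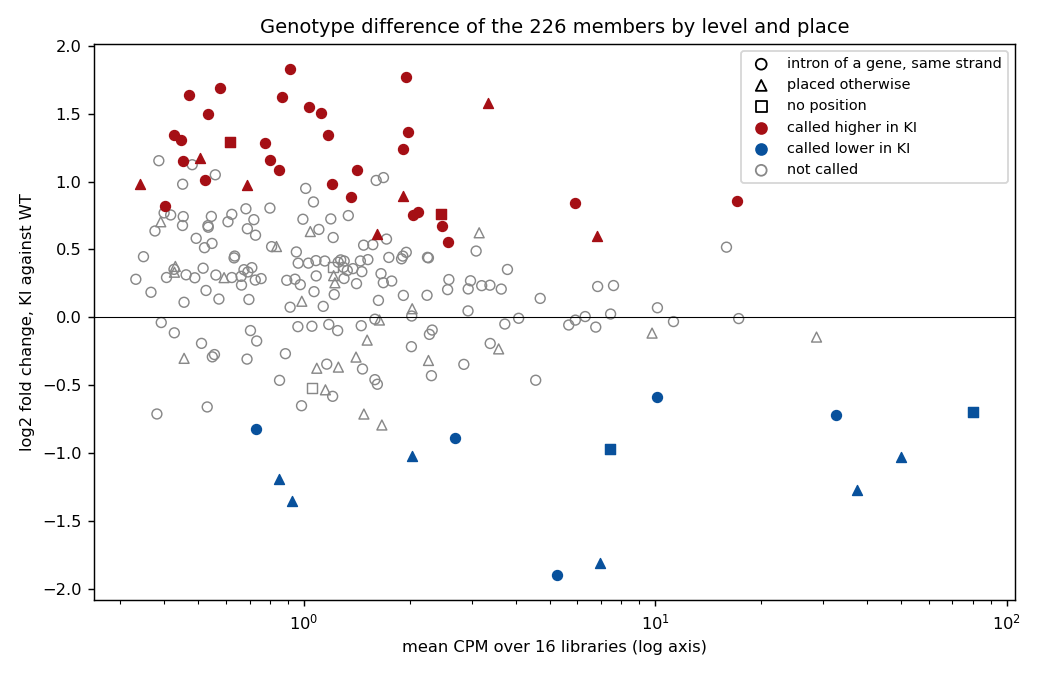
Log2 fold change of knock-in (KI) against WT, estimated over 8 libraries each, against the mean CPM over 16 libraries on a log axis, 1 point per member. Circles are members in an intron of a gene on the same strand, triangles members placed otherwise and squares members with no position; filled points were called, red for the 37 higher and blue for the 13 lower. Outside the 10 highest members lie 36 of the 37 red points, while 4 of the 10 highest are blue.

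Gm37820 is a TEC model at chr14:61920959-61923105 on the plus strand, in an intron of the lncRNA gene Gm27017. It starts 376 bases from the start of Dleu2 on the other strand, so that the first bases of both overlap. Dleu2 is the host of the microRNAs miR-15a and miR-16-1. Gm37820 had 4.37, 6.89 and 15.7 CPM as the lowest, median and highest value in WT libraries and 0.68, 2.21 and 3.11 CPM in knock-in libraries. The ranges did not overlap, and the 2 highest values were those of WT female replicates 1 and 2. It fell by 1.90 on the log2 scale (SE 0.283, edgeR FDR 0.000597; exact permutation of genotype within sex, two-sided, p = 0.000408, the smallest that the 4900 splits allow). Separate ranges fix this permutation p in advance, and Gm37820 was named for its small p, so it adds no support. Dleu2 itself had a log2 fold change of -0.15 (edgeR FDR 0.187).

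Gm37125 is a TEC model at chr1:172340816-172342414 on the plus strand, downstream of Tagln2, the gene of the actin-binding protein transgelin-2, and under the newer lncRNA model Gm70635, with which its counts could be shared. It measured 6.51, 9.99 and 18.8 CPM as the lowest, median and highest WT values and 1.24, 2.7 and 5.34 CPM in knock-in libraries. Again the groups were separate, and the highest values were those of WT female replicates 1 and 2. Of all libraries these also had the highest mitochondrial share of counts (21.7% and 19.7%). Their sums of astrocyte markers (981 and 1170 CPM) and endothelial markers (152 and 188 CPM) were the highest as well. The part of this in the levels of Gm37820 and Gm37125 was not tested. It fell by 1.81 on the log2 scale (SE 0.273, edgeR FDR 0.00063), and Tagln2 had -0.30 (edgeR FDR 0.02), short of the fold threshold.

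Gm37305 is a lncRNA at chr3:65865179-65869457 on the plus strand that starts 507 bases from the start of Ccnl1, the gene of cyclin L1, a cyclin of the splicing machinery, so that the first bases of the 2 genes overlap on opposite strands. In WT libraries its lowest, median and highest levels were 37.7, 50.6 and 75.8 CPM, and in knock-in libraries 12, 22.2 and 32 CPM. No knock-in library reached the lowest WT library. It fell by 1.27 on the log2 scale (SE 0.196, edgeR FDR 0.000701), next to a log2 fold change of -1.12 for Ccnl1 (SE 0.201, edgeR FDR 0.00186). The strand column of the counts is not named in the sources used here. Of 631 rows whose annotated exons all lie under exons of the other strand, 82 passed the count filter.

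Gm37472, which has no position, and Gm37352 were the most abundant members and both were lower, with overlapping ranges. Gm37472 measured 74.8, 96.4 and 134 CPM as the lowest, median and highest in WT and 43.7, 58.6 and 78.8 CPM in knock-in libraries, a fall of 0.70 on the log2 scale (SE 0.122, edgeR FDR 0.00156). Gm37352 lies at chr8:84927498-84929678, on the strand of the microRNA genes Mir23a, Mir27a and Mir24-2 and upstream of them. It measured 36.1, 64.3 and 105 CPM in WT and 19.1, 26.9 and 49.8 CPM in knock-in libraries and fell by 1.03 on the log2 scale (SE 0.216, edgeR FDR 0.00587). All 4 WT female libraries, between 76.5 and 105 CPM, lay above every other library of this member. Mir23a had a log2 fold change of -0.68 that was not called (edgeR FDR 0.262), at 1.77 CPM in WT.

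**Figure D2:**
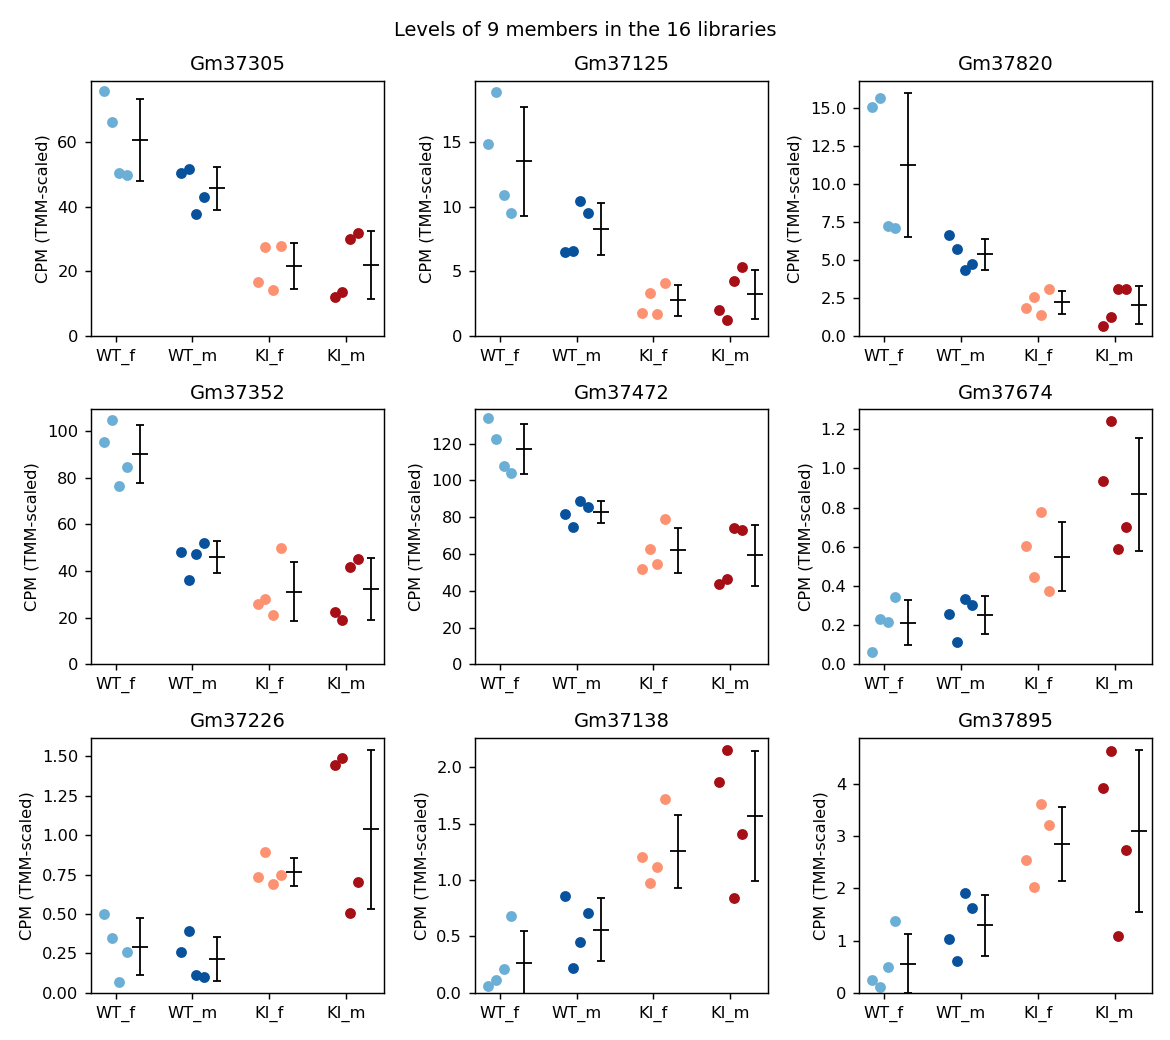
TMM-scaled CPM (linear axes from 0) of 9 members in the 4 groups, 1 point per library, with a bar for the mean and whiskers for the SD of the 4 libraries of a group. Gm37305, Gm37125, Gm37820, Gm37352 and Gm37472 sit lower in the knock-in (KI) groups, and Gm37674, Gm37226, Gm37138 and Gm37895 higher, at levels mostly below 2 CPM.

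The other 8 members called lower were Gm37084, Gm37542 and 6 that were named after their values were seen. Gm37084, in an intron of Mapkapk2, a kinase downstream of p38, had 40.8 ± 12.4 CPM in WT and 24.5 ± 6.19 CPM in knock-in libraries (SD, n = 8 each) and fell by 0.72 on the log2 scale (edgeR FDR 0.0102). Gm37542, antisense to a lncRNA gene, fell by 1.35 (edgeR FDR 0.0107). Gm37748, Gm37560, Gm37498 and Gm37558 lay 148 bases from the start of Uap1, 84 bases from that of Bcl2a1d, and in introns of Slc7a11 and Kpna4, with log2 fold changes of -1.19, -0.89, -0.82 and -0.59. Gm37800 lay outside genes and Gm37168 had no position, at -1.02 and -0.97. Of the 14 members that start within 1000 bases of a start on the other strand, a grouping made after the values were seen, 6 were called lower and 2 higher, with a median of -0.75. Of all tested features 4.3% were called lower and 4.33% higher, and of the 1992 other lncRNA genes 438 lower and 120 higher. Features outside the members with such a start were not compared.

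Of the 37 higher members 28 lay in an intron on the strand of the host, as did 183 of the 220 members with a position. The 3 with the largest rise were Gm37138 in Kcnb2, the gene of a voltage-gated potassium channel subunit, Gm37895 in Adgrb3, the gene of a synaptic adhesion receptor, and Gm37226 in Mthfsl. Gm37138 (chr1:15626473-15628561, plus strand) measured 0.0625, 0.337 and 0.857 CPM as the lowest, median and highest in WT and 0.84, 1.30 and 2.15 CPM in knock-in libraries. The highest WT value, in male replicate 1, lay just above the lowest knock-in value, in male replicate 3. Its log2 fold change was 1.83 (SE 0.35, edgeR FDR 0.00316). With 5 counts in 3 WT libraries it passed the count filter only through the knock-in libraries, so that its direction was set by the filter and the values are a description.

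Gm37226 (chr9:88564985-88568239, minus strand) and Gm37674 (chr1:194351981-194353814, plus strand, in an intron of the semaphorin receptor gene Plxna2) were the 2 higher members with no overlap between the genotypes. Both passed the count filter only through the knock-in libraries, with 5 counts in 2 and 0 WT libraries, so that their direction was set by the filter and their values are a description. Gm37226 measured 0.0714, 0.257 and 0.50 CPM in WT and 0.504, 0.742 and 1.49 CPM in knock-in libraries, so that the groups were separated by less than 1 count. Its log2 fold change was 1.69 (SE 0.345, edgeR FDR 0.00474). Gm37674 measured 0.0625, 0.244 and 0.342 CPM in WT and 0.374, 0.652 and 1.24 CPM in knock-in libraries, with a log2 fold change of 1.64 (SE 0.316, edgeR FDR 0.00332). In all, 5 members (2.21%) had ranges that did not overlap, where 1.29% of tested features did, and 2 of the 5 were these members.

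The remaining higher members among the 10 of smallest p were Gm37964, Gm37899 and Gm37895. Gm37964, in an intron of the galactosyltransferase gene B3galt1, had 1.16 ± 0.756 CPM in WT and 2.80 ± 0.949 CPM in knock-in libraries (SD, n = 8 each) and rose by 1.37 on the log2 scale (edgeR FDR 0.00401). Gm37899 (chr12:109635303-109644019, plus strand) overlaps the lncRNA gene B830012L14Rik in the imprinted region that holds Meg3, Rian and Mirg. It had 1.66 ± 0.943 and 5.04 ± 1.86 CPM and rose by 1.58 (edgeR FDR 0.00402), where B830012L14Rik rose by 1.07, Rian by 0.77, Meg3 by 0.73 and Mirg by 0.72, all 4 called. Of the 10 highest members 1 was called higher, Gm37677 in an intron of the myosin phosphatase gene Ppp1r12b, at 12.2 ± 5.33 CPM in WT and 22 ± 8.05 CPM in knock-in libraries (log2 fold change 0.85, edgeR FDR 0.0433; -0.11 with the neuronal marker covariate).

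Adgrb3, on the minus strand of chromosome 1, held 10 members, more than any other gene. All 10 had a log2 fold change above 0 and 7 were called, where 8.64% of all tested features were. From the start of the host onwards the 7 were Gm37602 (1.01), Gm37895 (1.77), Gm37077 (1.35), Gm37628 (1.24), Gm37051 (1.15), Gm37880 (0.98) and Gm37211 (1.51). Of the 7, Gm37051 reached 5 counts in fewer than 4 WT libraries, so that its direction was set by the count filter. Gm37011, Gm37862 and Gm37331, at 0.65, 0.85 and 0.95, were not called. Counts over the exons of Adgrb3 were 19.8 ± 8.25 CPM in WT and 31.5 ± 9.47 CPM in knock-in libraries (SD, n = 8 each). On the log2 scale this was a difference of 0.70 (SE 0.222, edgeR FDR 0.0536), and Adgrb3 was itself called higher. Gm37895 measured 0.116, 0.823 and 1.91 CPM in WT and 1.09, 2.98 and 4.63 CPM in knock-in libraries, and the one knock-in library inside the WT range was male replicate 3. With the neuronal marker covariate Gm37895 was at 0.57 and Gm37628 at 0.24, Gm37077, Gm37051 and Gm37602 were at 0.000574, 0.00569 and 0.00369, and Gm37211 and Gm37880 were at -0.29 and -0.21, none of them called. The 10 members share the transcription of 1 gene and are not independent of each other.

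**Figure D3:**
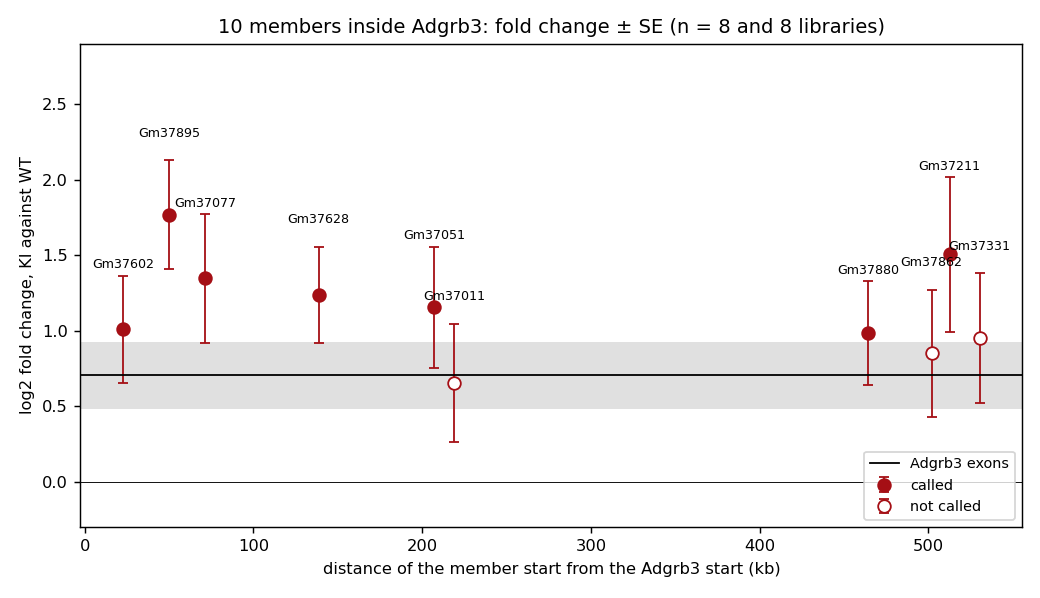
Log2 fold change of knock-in (KI) against WT, with SE, of the 10 members inside Adgrb3 against the distance of each start from the start of the host in kb; filled points were called. The line and band are the estimate for the Adgrb3 exons, 0.70 ± 0.222. Of the 10 points, 9 lie above the line, and Gm37011 lies below it.

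Maml3, Cers6 and Tcf12 each held 4 members. These genes code for a Notch coactivator, a ceramide synthase and a bHLH transcription factor. In Cers6 Gm37747 and Gm37666 were called higher (0.88 and 0.67), while Gm37159 and Gm37651 were at 0.48 and 0.41. None of the members in Maml3 (Gm37342, Gm37465, Gm37675 and Gm37526, from 0.35 to -0.27) or in Tcf12 (Gm37137, Gm37879, Gm37663 and Gm37023, from 1.05 to -0.07) was called. The hosts themselves were at -0.05 for Maml3, 0.16 for Cers6 and 0.02 for Tcf12, and none was called.

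Over the 183 pairs of a member and its host, members were compared with the gene around them. The median log2 fold change was 0.345 for members and 0.0257 for hosts, and the Pearson correlation across pairs was 0.669 (Spearman 0.664), a description over 183 pairs and 126 hosts that share the same libraries. Of 31 pairs whose member was called higher, the host was above 0 in 27 and itself called higher in 14. Among these pairs Gm37602, Gm37895, Gm37077, Gm37628, Gm37051, Gm37880 and Gm37211 share the host Adgrb3. Such pairs are not independent of each other. All 9 hosts that were called were higher. Of the 127 tested genes that hold a whole member of any class on their strand, 7.09% were called, where 8.64% of all tested features were.

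To compare a member with its host directly, the level of the host in each library was entered as an offset, so that the test asks whether the member differed beyond its host. Under the same thresholds, with the FDR over 1175 nested TEC and lncRNA features, 30 of 183 members (16.4%) were called beyond the host, where 19.6% of all nested features were. Of these, 24 were higher (all nested features 16%) and 6 lower (3.57%), and the median was 0.268. Among the 166 that reached 5 counts in 4 or more WT libraries, 20 were called higher and 6 lower. The offset rests on counts over the exons of the host. The test therefore cannot separate a member from the unspliced precursor of its host. The smallest p were those of Gm37820 (-1.90, SE 0.331, edgeR FDR 0.00025), Gm37226 (1.71, SE 0.359, FDR 0.00263), Gm37895 (1.09, SE 0.229, FDR 0.00263), Gm37138 (1.26, SE 0.288, FDR 0.00484) and Gm37902 in Cul3, a scaffold of ubiquitin ligases (0.86, SE 0.204, FDR 0.00529). Gm37226 and Gm37138 are among those whose direction was set by the count filter. The host of Gm37820, Gm27017, was itself at 0.547 CPM in WT. Without knock-in female replicate 3, 18 members were called beyond the host, among 143 nested features. Of the 31 members called higher in such pairs 17 were also called higher beyond the host, and the other 14 were not.

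**Figure D4:**
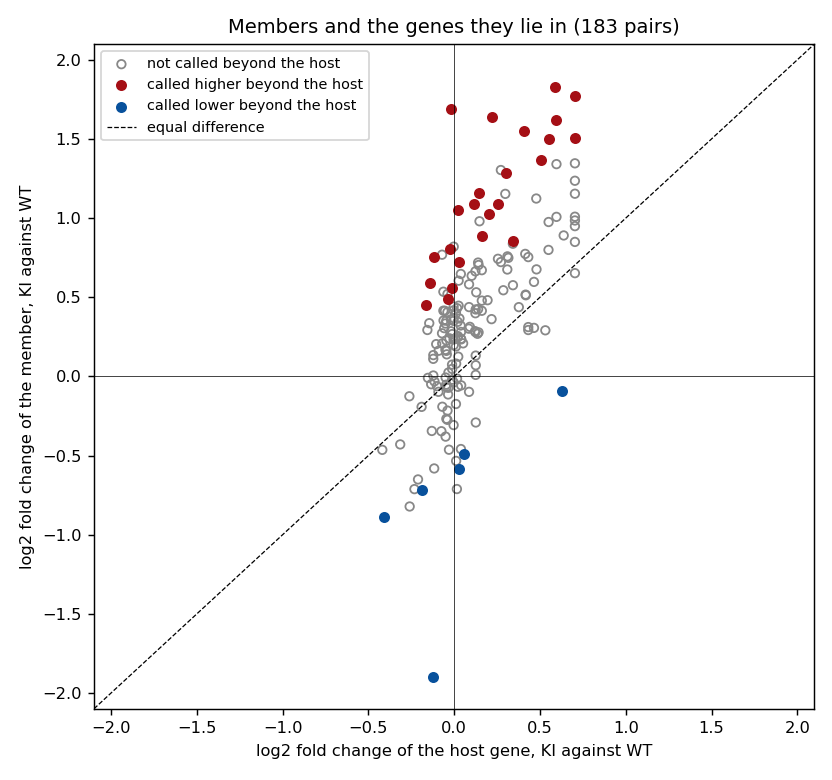
Log2 fold change of 183 members against that of the host gene, both knock-in (KI) against WT over 8 libraries each; the dashed line marks equal differences. Red and blue points were called higher (24) and lower (6) beyond the host. Of all points, 140 were estimated above the host in the test with the offset.

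The 3′ ends shown above were also read in the called members, as a description with no test. An A-rich window beyond the end was present in 26 of 35 members called higher that have a position (74.3%) and in 4 of 11 called lower (36.4%). A hexamer was present in 4 of the former (11.4%) and in 6 of the latter (54.5%).

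Within females the contrast of the 4 knock-in with the 4 WT libraries called 31 members (13.7%; all features 7.15%), 19 higher and 12 lower (all features 2.82% and 4.33%). Of these, 26 were also called over both sexes. The 3 of smallest p were Gm37125 (log2 fold change -2.28, SE 0.357, edgeR FDR 0.00117), Gm37820 (-2.33, SE 0.367, FDR 0.00119) and Gm37352 (-1.53, SE 0.255, FDR 0.00177). Within males 0 members were called by edgeR (all features 0.252%), 34 had an unadjusted p below 0.05 (all features 11.7%), of which 23 were higher, and the smallest FDR was 0.113. DESeq2 called 5 members within males, among 276 features, and limma voom 1, among 84. Without WT female replicate 1, or without knock-in female replicate 3, 15 members were called within females (among 631 and 696 features), and with WT female replicate 2 removed, 19 (among 770). Removing WT female replicate 4 gave 58 (among 2139), and without knock-in male replicate 3 there were 47 within females (among 1611) and 17 within males (among 619). Without knock-in male replicate 4, 6 were called within males (among 199).

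The difference between the sexes was tested itself, as the interaction of genotype and sex. It called 0 members in edgeR, DESeq2 and limma voom (edgeR over all features 0.0274%). Unadjusted, 9 members had a p below 0.05 (all features 5.94%), and the smallest FDR was 0.611, that of Gm37352. Its fall was 1.53 in females and 0.50 in males. Of the 226 members, 179 had the same sign in both sexes. All 50 members called over both sexes did. They were chosen by a fit over both sexes, which favours equal signs, so this is no support. For 10 of the 50 the direction was set by the count filter. The members called higher in females had medians of 1.64 in females and 0.972 in males, and those called lower of -1.25 and -0.497, and these members were chosen by their values in females.

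**Figure D5:**
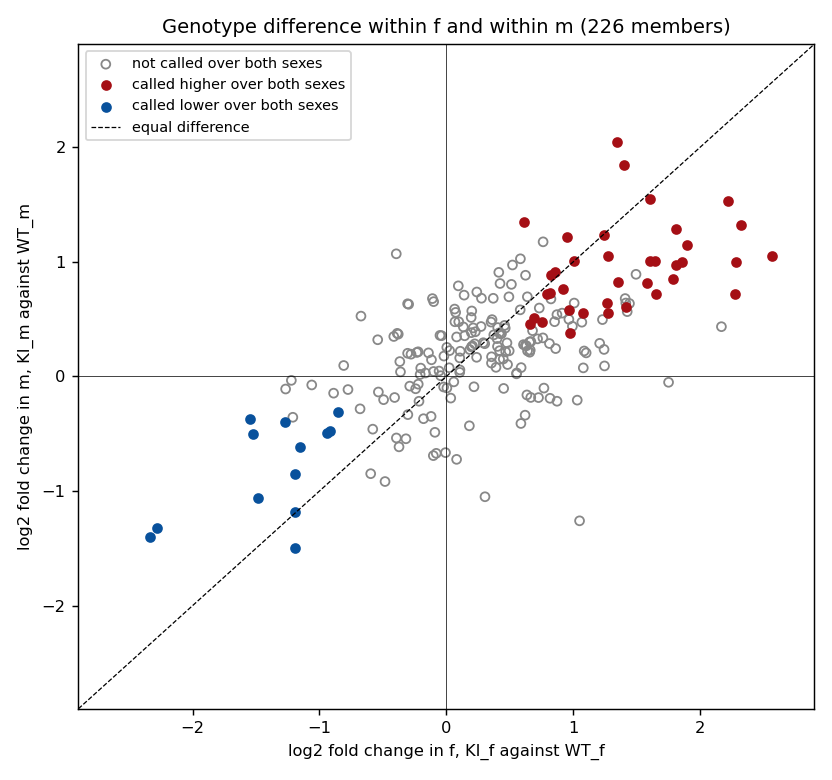
Log2 fold change within males against that within females, 4 knock-in (KI) and 4 WT libraries each, for the 226 members; the dashed line marks equal differences. Filled points were called over both sexes, and all 50 lie in the quadrants of equal sign. The fit over both sexes that chose them favours equal signs.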

How the data were processed

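RNA of olfactory bulb microglia was sequenced in 16 libraries (4 each of female and male WT and App NL-G-F mice), made with a stranded SMART-Seq kit from total RNA. STAR was used by the authors on GRCm39 (gencode vM32 genes plus human App), and the deposited values are raw counts per gene, 9052932 to 18117286 per library, for 57010 rows. The strand column is not given in the sources used here.

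Tools were edgeR 4.0.16, limma 3.58.1 and DESeq2 1.42.0 in R 4.3.3. The 18227 rows in which 8 or more libraries had 5 or more counts were scaled by TMM and tested with edgeR's quasi-likelihood test, with sex as a term. A model with a mean for each of the 4 groups gave the contrasts within sexes and the interaction. Features were called at an FDR below 0.1 with an absolute log2 fold change above 0.5. The standard error is the absolute log2 fold change over the square root of F. In the test beyond the host, the TMM-scaled log CPM of the host (prior count 2) was added to the offset. Exact permutation tests exchanged genotype within sex. The procedure was tested on simulated data. The p-values measure the spread between libraries, which the labels number as replicates without stating that each is 1 mouse. Any 2 libraries of a group differed in at least 26023 rows.

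Positions, classes and sequences came from GENCODE M39 and GRCm39, which matched 97.7% of the tested rows. A host is the shortest protein-coding gene, else lncRNA gene, on the same strand that holds the whole member.

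Named members were the 10 highest, the 10 called with the smallest p, the 3 called with the largest fold change in each direction, those in the 5 hosts with most members, the 5 with the smallest p beyond the host and the 3 with the smallest p within females. The members whose 3′ ends are shown followed the same kind of rule, while neighbouring genes and the start windows were chosen after values were seen. A few host genes and 1 sequence chosen by these rules are not reported here. Members, marker lists and tests were chosen with earlier results of these data known. Alternatives were other normalizations, tools, filters and thresholds, a replicate block, a term for library number, a neuron marker covariate and leaving out each library. The split by library number and a filter on WT counts were added after seeing the data.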

Additional observations from a re-analysis of the deposited data

Results flagged for a closer look

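In groups of 4 libraries, a library was singled out where its gap to the nearest other library, over the range of the group, was above Dixon's critical value for 4 samples. Over 184 groups, of 45 named members and of the share of counts in members, 9 were singled out, where chance gives about 9.2. In WT males, replicate 2 was low for Gm37677 (ratio 0.844; 7.26 CPM, next 14.6), Gm37023 (0.946) and Gm37862 (0.871), replicate 1 was high for Gm37899 (0.875; 2.91 CPM, next 1.52), and replicate 3 was high for Gm37602 (0.909). In WT females, replicate 2 was low for Gm37342 (0.903; 1.62 CPM, next 3.78). In App NL-G-F females, replicate 2 was low for Gm37465 (0.861) and Gm37675 (0.892), and replicate 3 was high for Gm37602 (0.884; 0.947 CPM, next 0.524). No interaction of genotype with sex was called among the members.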

How the results depend on the processing

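Of 24 named members that were called, 16 stayed called under all of 28 alternatives in which they could be tested, and 0 changed sign there. Those that lost the call were Gm37051, Gm37077, Gm37106, Gm37211, Gm37602, Gm37666, Gm37677 and Gm37880. For Gm37138, Gm37226 and Gm37674 among the 16, and for Gm37051 and Gm37106 among the others, the direction was set by the count filter. A kept sign or call is no support for these members. In libraries 9 to 16, 2 of the 24 were called and 0 changed sign. The fit that chose the 24 included these libraries, which favours equal signs. With the neuron marker covariate 0 of 24 were called and 4 changed sign, namely Gm37677 (-0.11), Gm37211 (-0.29), Gm37666 (-0.083) and Gm37880 (-0.21). The other 47 sign changes were in 19 named members that were not called. With the covariate these were Gm37524 (-0.50), Gm37613 (-0.53), Gm37011 (-0.75), Gm37137 (-0.038), Gm37159 (-0.60), Gm37331 (-0.47), Gm37342 (-0.0636), Gm37465 (-0.25), Gm37651 (-0.36), Gm37706 (-0.67), Gm37862 (-0.65) and Gm37879 (-0.0146). In libraries 9 to 16 they were Gm37613 (-0.23), Gm37011 (-0.27), Gm37023 (0.076), Gm37159 (-0.037), Gm37465 (-0.026), Gm37598 (-0.052), Gm37663 (-0.14) and Gm37960 (0.14), and in libraries 1 to 8 Gm37420 (0.23), Gm37954 (0.15) and Gm37526 (0.018). Gm37420 was at 0.0034 with upper quartile factors, 0.012 with the replicate block, 0.0086 with the library number term and 0.013 in limma voom. With each library left out Gm37420 ran from -0.0712 to 0.102, Gm37954 ran from -0.0907 to 0.0301, Gm37960 ran from -0.165 to 0.10, Gm37613 ran from -0.032 to 0.16 and Gm37023 ran from -0.144 to 0.0301.

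The 50 members called over both sexes became 21 (11 higher and 10 lower) when 5 counts were required in all 16 libraries, 0 with the neuron marker covariate and 2 in libraries 9 to 16 (a split chosen after seeing the data), and ran from 35 (without App NL-G-F male replicate 2) to 76 with each library left out. The features called, 1574 at first, became 1108, 61 and 78 in these settings. At the 2 ends of the range they were 1115 and 2188. The members called became 36 at an FDR of 0.05, 53 in DESeq2 and 49 in limma voom, among 1107, 1610 and 1700 features. The 31 within females became 54 without a count filter, 15 with 5 counts in 16 libraries and 20 at an FDR of 0.05, and ran from 15 to 58. The features called within females, 1304 at first, became 2136, 974 and 833 in these settings. The 0 within males became 15 without a count filter, 5 in DESeq2, 1 in limma voom and 3 with a term for library number, and ran from 0 to 17. The features called within males, 46 at first, became 880, 276, 84 and 141 in these settings. The interaction gave 5 without a count filter (among 470 features, against 5 features with it) and otherwise 0, also with each library left out. The 30 beyond the host became 12 with 5 counts in 16 libraries, 19 at an FDR of 0.05 and 53 without the host offset, and ran from 18 to 40. The nested features called, 230 at first, became 113, 144 and 426, and were 143 and 313 at the 2 ends of the range. The share of counts in members was 0.0661%, 0.0831% without ribosomal and mitochondrial rows, and 0.0652% to 0.0669% with each library left out. The causes were not tested, except that requiring counts in 16 libraries leaves 117 members.

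Pairs of libraries were compared by the correlation of their deviations from the group means. It was above 0.1 in 8 of 24 pairs with the same replicate number (median 0.0339). The same held for 18 of 72 pairs with different numbers (median -0.0295). The difference was not tested, so these values cannot decide whether the replicate numbers pair the libraries. With the replicate number as a block the members called were 44 over both sexes (31 higher and 13 lower), 32 within females, 1 within males, 0 in the interaction and 29 beyond the host. The features called were 1562, 1210, 43 and 3, and beyond the host 227 nested features.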
